A study of Mus musculus with 32 samples.

Results

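Prospermatogonia are germ cells of the fetal testis, the precursors of spermatogonia. Prospermatogonia of Taf4b-deficient (DEF) embryos were compared with those of Taf4b-heterozygous (HET) embryos at stage E16.5 (embryonic day), in 8 DEF and 9 HET RNA-seq libraries, which are 17 of the 32 libraries of the series. These libraries were chosen by their genotype and age labels alone. The 7 wildtype libraries of the same age and the 8 libraries of stage E14.5 were not used. Each library held germ cells of male embryos labelled as C57BL/6 strain. All parents carried the Oct4-EGFP transgene (B6;129S4-Pou5f1tm2Jae/J) on both alleles and the Taf4b-deficiency mutation on 1 allele. Cells positive for the green fluorescent reporter and negative for propidium iodide, a stain of dead cells, were sorted, and total RNA was sequenced. Both groups therefore share the transgene and heterozygous parents, and the groups differ in whether 1 or both copies of Taf4b carry the mutation. The labels do not say which part of Taf4b the mutation removes, nor whether embryos were pooled, so the p-values measure the spread between libraries.

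Taf4b encodes a subunit of TFIID, the complex that binds core promoters and starts transcription by RNA polymerase II, and it is a gonad-enriched paralog of the broadly expressed Taf4. By about this age, male germ cells leave the mitotic cycle, silence pluripotency genes, lose Nodal signalling, and begin to express the piRNA and de novo DNA methylation machinery that silences transposons. Male mice without Taf4b are known to lose their germ line with age, because spermatogonial stem cells are not maintained.

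The 2 genotypes came from 5 litters, lettered A to E here. Litters A, B and C held both genotypes and gave 8 libraries, 4 of each genotype. Litter D held 5 HET libraries and no DEF library, and litter E held 4 DEF libraries and no HET library. Values from the 8 libraries of the shared litters, with litter as a block in the model, are therefore given beside the values from all 17 libraries. Gene counts summed to between 17.66 and 22.24 M (mega counts) in DEF libraries, with a median of 20.85 M, and to between 20.21 and 25.66 M in HET libraries, with a median of 22.44 M. Levels are given as CPM, gene counts divided by a library size that was scaled with factors from the trimmed mean of M values.

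Taf4b (ENSMUSG00000054321, chromosome 18) ranged from 54.7 to 177 CPM (median 137) in HET and from 50.8 to 136 CPM (median 61.6) in DEF libraries. Apart from replicate 8 at 136 CPM, the DEF libraries lay between 50.8 and 68.2 CPM. HET replicate 5 had 54.7 CPM and the other HET libraries at least 109.9 CPM, so each of these 2 libraries had the level of the opposite label. They are called the libraries labelled DEF replicate 8 and HET replicate 5, and the counts below were repeated without them. The difference of mean log2(CPM + 1) was -0.93 (exact permutation test over 24310 regroupings, two-sided, p = 0.00239), and -1.23 without the 2 libraries. Since these were left out for their Taf4b levels, the groups no longer overlapped. The exact p of 0.000155, the smallest that design can give, was therefore fixed by leaving them out and is no further test. The quasi-likelihood fit of edgeR gave Taf4b a log2 fold change of -0.93 ± 0.21 (SE), with a Benjamini-Hochberg adjusted p of 0.0105, and -1.16 in the shared litters (adjusted p 0.00282). Its paralog Taf4, at 0.27 (edgeR adjusted p 0.233), was not called.

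A second division of the libraries ran almost parallel to genotype. Counts assigned to Lars2, the gene for mitochondrial leucyl-tRNA synthetase, were between 18957 and 24928 CPM in all 8 DEF libraries and between 1462 and 4060 CPM in 7 HET libraries, but 22384 CPM in HET replicate 4 and 20750 CPM in HET replicate 6. No library lay between 4060 and 18957 CPM. The same 10 libraries had more counts for other structured RNA. The small nuclear RNA Rn7sk had 3.83 to 10.8 CPM in the 7 HET libraries with low Lars2 counts, 30.4 and 32.8 CPM in HET replicates 6 and 4, and 13.9 to 41.9 CPM in DEF libraries. Mitochondrial ribosomal RNA had a median of 2859 CPM in the 7 libraries, 5346 CPM in the 2 libraries and 5870 CPM in DEF libraries. HET replicate 4 belonged to litter C and HET replicate 6 to litter D, which also held libraries with low Lars2 counts, so the division was not one of litters. Since no DEF library had low Lars2 counts, genotype and this division cannot be told apart except through HET replicates 4 and 6, and for the results below the 8 DEF libraries were also set against these 2 libraries alone.

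**Figure D1:**
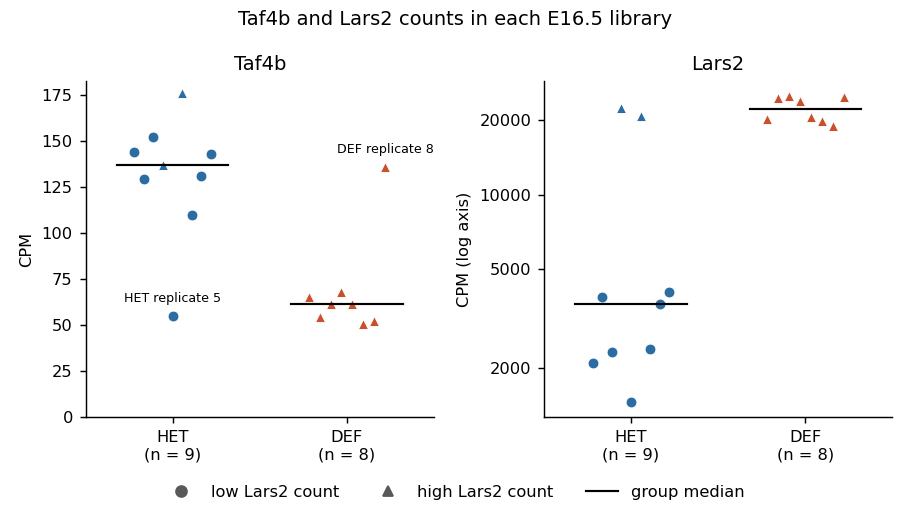
Taf4b (left, linear axis) and Lars2 (right, log axis) in CPM in each of the 9 HET and 8 DEF libraries. Points are libraries, triangles mark high Lars2 counts and horizontal lines are group medians. Labels mark the libraries whose Taf4b level was that of the other genotype, and HET replicates 4 and 6 lie with the DEF libraries for Lars2.

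Germ cell markers had overlapping levels in both groups. The 12 germ cell markers summed to between 5188 and 6544 CPM (median 6037) in HET and between 4814 and 6839 CPM (median 5946) in DEF libraries. Ddx4, the germ cell helicase, had 792 to 1086 CPM (median 969.9) in HET and 749 to 978 CPM (median 902) in DEF libraries. RNA of other testis cells was present and not equal between the groups. The 11 Leydig cell markers summed to between 212 and 4509 CPM (median 1959) in HET and between 253 and 1884 CPM (median 625) in DEF libraries, and the 12 macrophage markers to between 30.9 and 55.0 CPM (median 44.0) and between 12.6 and 45.8 CPM (median 22.1). The sum of the Sertoli markers had medians of 175 and 135 CPM, that of the interstitial markers 128 and 95.8 CPM, that of the endothelial markers 108 and 97.0 CPM and that of the red blood cell markers 259 and 282 CPM. The Sertoli sum does not speak for its members. Inha alone had medians of 122 CPM in HET and 57.5 CPM in DEF libraries, while 11 of the 14 Sertoli markers had a positive log2 fold change (median 0.09). No marker was at 0 in every library. For bulk libraries, fewer cells of a type and less RNA per cell cannot be told apart, and the part of these markers in the results was not tested.

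Over the 17 libraries, edgeR called 2862 of 22365 genes tested (12.8%) at a Benjamini-Hochberg adjusted p under 0.05, 1659 higher in DEF (7.42%) and 1203 lower (5.38%), of which 675 had a log2 change of 1 or more in size. The split depended on the scaling. In the deposited TPM values, limma on log2(TPM + 1) called 526 higher (2.35%) and 2333 lower (10.4%), with the median of all genes at -0.10 (log2). With each library's TPM centred on its median, a setting added after the data were seen, it called 1713 higher (7.66%) and 1113 lower (4.98%), a split close to that of the counts. Directions therefore hold relative to the scaling of the counts. In the shared litters with litter as a block, 358 of 23024 genes were called (1.55%), 186 higher (0.808%) and 172 lower (0.747%), and 4989 had an unadjusted p under 0.05. With litter as a covariate over the 17 libraries, 188 genes were called (0.841%). Single libraries weighed on these counts. The 2862 calls became 5027 without DEF replicate 1, and 1512, 1670, 1118 and 1305 without DEF replicates 2, 5, 6 and 7, and 1556, 1854 and 1766 without HET replicates 1, 3 and 8. Without the libraries labelled DEF replicate 8 and HET replicate 5 together, 2910 genes were called, and 3584 and 2092 without each alone. The 358 calls of the shared litters became 770 without DEF replicate 4, 5, 27 and 24 without DEF replicates 1, 2 and 3, and 4, 22 and 3 without HET replicates 1, 2 and 3. Among the 10 libraries with high Lars2 counts, edgeR called 0 of 26194 genes, and 1120 had an unadjusted p under 0.05, 674 higher (2.57%) and 446 lower (1.7%). The 17 libraries with the Lars2 division as covariate also gave 0 calls by edgeR, with 1595 genes at an unadjusted p under 0.05. On simulated counts, the test over 17 libraries called 72 of 100 genes changed by 1 and 95 of 100 changed by 2 on the log2 scale, and the shared-litter test 27 and 83. The simulated counts held no litter effect and no Lars2 division. For both tests they had the spread of the 17-library fit without litter, so these shares do not describe libraries divided as the real ones were. No simulation was made for the 8 against 2 libraries.

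The genotypes overlapped for most genes. Every DEF library lay above every HET library in 84 genes (0.376% of those tested) and below in 58 (0.259%), and in none of the genes named below by the naming rule. To place each library, the called genes were found again without it, and the median of its position on them was taken, with 0 at the mean of HET and 1 at the mean of DEF libraries. DEF replicates 2, 7, 6, 5 and 3 stood at 1.45, 1.45, 1.31, 1.01 and 0.85. DEF replicates 8, 4 and 1 stood at 0.39, 0.35 and 0.08, and the HET libraries at -0.28 to 0.45. HET replicates 2, 6 and 4, at 0.45, 0.45 and 0.33, were the highest of their group. DEF libraries of 1 litter were therefore spread widely, from 0.39 to 1.45 in litter E and from 0.35 to 0.85 in litter C. On genes called without both libraries whose Taf4b level was that of the opposite label, HET replicate 5 stood at -0.10 and DEF replicate 8 at 0.38. In this measure HET replicate 5 lay with the HET libraries. The first principal component of the 500 most variable genes held 56.1% of the variance and the second 19.8%.

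**Figure D2:**
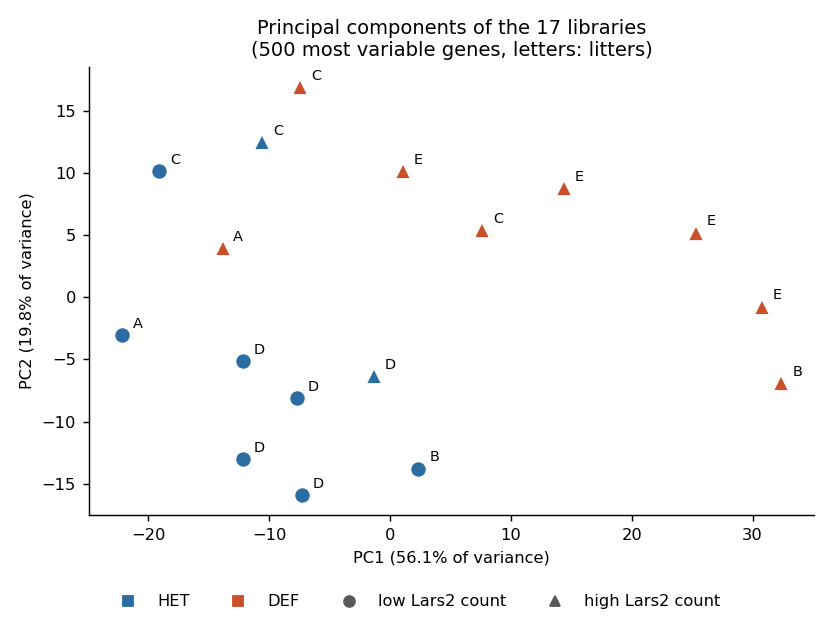
First and second principal components of log2 CPM over the 500 most variable genes, with 56.1% and 19.8% of the variance. Colours are genotypes, triangles are libraries with high Lars2 counts and letters are litters. DEF libraries of litters B and E reach the far right, and the DEF library of litter A lies among HET libraries.

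The naming rule gave 24 genes with the largest changes. It took genes called over the 17 libraries that also had an unadjusted p under 0.05 with the same sign in the shared litters, so their values in both sets describe the selection. Of the 24, edgeR called 10 in the shared litters with the block and 4 with litter as a covariate over the 17 libraries. It called 0 of them in the shared litters without the block, and 0 with litter and the Lars2 division as covariates. The promoters of the 4 genes called with litter as a covariate, Ddit4, Unc45b, Kcnn4 and Actc1, are shown. Each sequence is 300 bases of the RefSeq annotation of GRCm38.p6, from 250 before to 50 after the annotated start, 5′ to 3′ on the gene's strand. Capitals mark matches on either strand to 4 motifs, which do not overlap each other in the sequences shown. The TATA box, searched as TATAAA, was found in 13.6% of the 32851 RefSeq promoters of this length. The GC box, GGGCGG, was found in 35.7%, the CCAAT box in 37.4% and the E-box CACGTG in 7.15%.
Ddit4, chr10:59951721-59952020, minus strand: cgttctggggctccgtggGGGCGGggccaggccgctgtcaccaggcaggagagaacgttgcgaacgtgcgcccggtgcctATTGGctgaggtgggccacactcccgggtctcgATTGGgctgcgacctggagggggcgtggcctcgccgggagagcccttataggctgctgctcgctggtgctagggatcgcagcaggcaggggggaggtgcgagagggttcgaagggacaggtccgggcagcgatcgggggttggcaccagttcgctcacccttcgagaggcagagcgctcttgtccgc
Unc45b, chr11:82911003-82911302, plus strand: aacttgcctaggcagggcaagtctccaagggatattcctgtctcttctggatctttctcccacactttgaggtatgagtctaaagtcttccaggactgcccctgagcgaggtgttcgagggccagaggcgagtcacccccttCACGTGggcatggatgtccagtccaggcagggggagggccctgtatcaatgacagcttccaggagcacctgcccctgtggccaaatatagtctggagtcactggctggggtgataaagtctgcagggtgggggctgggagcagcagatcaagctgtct
Kcnn4, chr7:24370013-24370312, plus strand: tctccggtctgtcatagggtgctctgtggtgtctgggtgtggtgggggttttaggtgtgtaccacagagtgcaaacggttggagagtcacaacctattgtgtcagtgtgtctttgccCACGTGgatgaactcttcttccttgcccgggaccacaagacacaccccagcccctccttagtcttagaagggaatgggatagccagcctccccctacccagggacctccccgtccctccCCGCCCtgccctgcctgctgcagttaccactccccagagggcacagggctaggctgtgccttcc
Actc1, chr2:114052826-114053125, minus strand: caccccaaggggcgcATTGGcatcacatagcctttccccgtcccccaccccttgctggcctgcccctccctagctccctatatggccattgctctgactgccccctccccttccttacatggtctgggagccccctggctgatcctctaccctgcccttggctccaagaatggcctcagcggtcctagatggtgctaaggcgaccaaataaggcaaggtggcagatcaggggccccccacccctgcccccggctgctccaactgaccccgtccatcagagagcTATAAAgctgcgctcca

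The Ddit4 promoter held 1 GC box and 2 CCAAT boxes, the Unc45b promoter 1 E-box, the Kcnn4 promoter 1 E-box and 1 GC box, and the Actc1 promoter 1 CCAAT box and, within the transcribed 50 bases, 1 TATAAA. A match is a description of the letters and not of binding. Promoter sequences were matched for 13019 of the 16448 protein-coding genes tested (79.2%), fewer than the 80% needed, so the motifs were not compared between gene groups.

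Ddit4, an inhibitor of mTORC1 induced by stress, had 0.863 to 3.36 CPM (median 1.91) in HET and 3.26 to 14.0 CPM (median 9.33) in DEF libraries. It lay above every HET library in 7 of 8 DEF libraries (replicates 1, 2, 3, 5, 6, 7 and 8). Its log2 fold change was 2.13 ± 0.34 (SE; edgeR adjusted p 0.00225), 2.02 in the shared litters (adjusted p 0.0378) and 1.54 against the 2 HET libraries with high Lars2 counts (unadjusted p 0.0198). The mean of DEF was higher than that of HET in litters A, B and C, by 3.37-fold, 5.06-fold and 3.83-fold.

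Unc45b, a myosin chaperone of muscle, had 2.81 to 12.7 CPM (median 7.14) in HET and 0.322 to 4.51 CPM (median 1.96) in DEF libraries. Only HET replicate 2, at 2.81 CPM, lay within the DEF range, and 5 of 8 DEF libraries lay below every HET library. Its log2 fold change was -1.85 ± 0.36 (edgeR adjusted p 0.00644), with -2.0 in the shared litters (adjusted p 0.015) and -1.77 in the libraries with high Lars2 counts (unadjusted p 0.00653). Kcnn4, a calcium-activated potassium channel, had 4.10 to 29.1 CPM (median 9.78) in HET and 1.6 to 12.7 CPM (median 2.32) in DEF libraries, and 7 of 8 DEF libraries lay below every HET library. Its highest DEF value came from replicate 1, whose litter mate HET replicate 1 was the highest of HET at 29.1 CPM. Its log2 fold change was -1.84 over the 17 libraries and -1.41 in the shared litters (edgeR adjusted p 0.0136 and 0.0264). Actc1, cardiac alpha-actin, had 6.47 to 15.7 CPM (median 12.8) and 1.06 to 7.94 CPM (median 4.42), which gave -1.57 on the log2 scale over the 17 libraries (edgeR adjusted p 0.00644) and -1.81 in the shared litters (adjusted p 0.0211). HET replicate 6, at 6.47 CPM, was the only HET library within the DEF range.

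Other genes named as lower were Gys2, the liver-type glycogen synthase, Hkdc1, a hexokinase-like protein, the T-box factor Tbx19, Ccdc110, the sulfotransferase Sult2a5, the interferon-inducible Ifi207, Clca1 and the unnamed gene AC154707.1. Their log2 fold changes lay between -1.78 (Gys2) and -1.57 (AC154707.1), and between -2.19 (Ccdc110) and -1.07 (Sult2a5) in the shared litters. Against HET replicates 4 and 6 all 12 genes named as lower had a negative log2 fold change in libraries that the naming rule had also used, from -1.77 (Unc45b) to -1.09 (Hkdc1), but none was called. Gys2 had 4.18 to 17.3 CPM (median 7.61) in HET and 0.327 to 5.95 CPM (median 2.15) in DEF libraries, and 7 of 8 DEF libraries lay below every HET library.

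**Figure D3:**
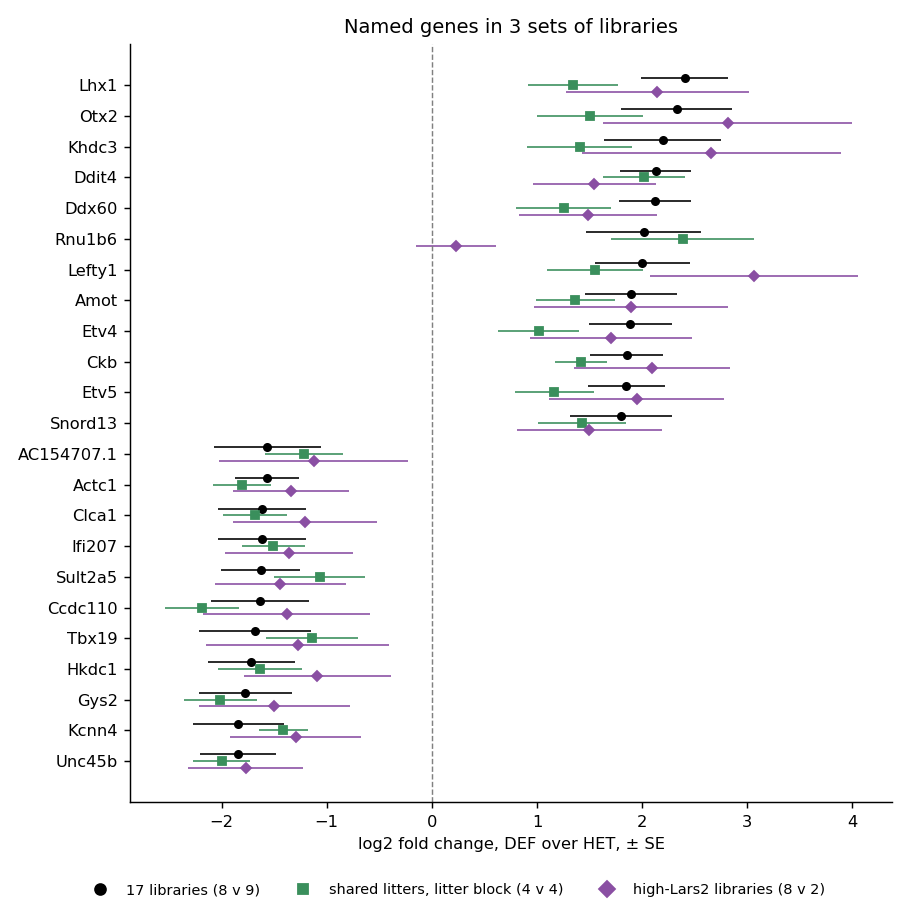
Log2 fold changes (DEF over HET) with standard errors of the 12 genes named as higher and 11 of those named as lower, from all 17 libraries (black), the 8 libraries of shared litters with litter as block (green) and the 10 libraries with high Lars2 counts (purple). The sign in the first 2 sets was fixed by the naming rule, the third set shares its libraries with the first, and Rnu1b6 drops to 0.23 in the libraries with high Lars2 counts.

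Nodal is a TGF-beta family ligand that, with its coreceptor Tdgf1, signals through activin receptors and Smad2/3 in fetal male germ cells, and is restrained by the Lefty proteins. Of 20 members tested of this pathway, 7 rose and 1 fell by edgeR, where 7.42% of all genes tested rose and 5.38% fell. The median log2 fold change was 0.53, against 0.01 over all genes tested. The ligand and coreceptor were not called. Nodal had 1.80 to 6.27 CPM (median 2.80) in HET and 1.65 to 8.71 CPM (median 3.92) in DEF libraries (log2 fold change 0.35, edgeR adjusted p 0.473), and Tdgf1 had 0.645 to 2.39 CPM (median 1.24) and 0.429 to 2.56 CPM (median 0.785) (log2 fold change -0.41, adjusted p 0.471). Among receptors and transducers, Acvr2b, Smad3 and Smad4 rose by 0.45, 1.01 and 0.57 on the log2 scale. Pcsk6, a convertase that processes Nodal, fell by 0.75. The inhibitor Lefty1, itself a target, had 1.24 to 7.17 CPM (median 3.83) in HET and 2.41 to 32.9 CPM (median 10.6) in DEF libraries and rose by 2.00 ± 0.45 on the log2 scale (edgeR adjusted p 0.0111). It lay above every HET library in 6 of 8 DEF libraries (replicates 2, 3, 5, 6, 7 and 8). In DEF replicates 1 and 4 it had 3.00 and 2.41 CPM, within the HET range. Lefty2, the other Lefty gene, was higher in only part of the DEF libraries. It had 2.59 to 39.8 CPM in HET libraries, and 44.4 to 50.9 CPM in DEF replicates 2, 6 and 7. In DEF replicates 1, 3, 4, 5 and 8 Lefty2 had 3.92 to 15.9 CPM, within the HET range.

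The targets Otx2 and Lhx1, which encode homeodomain factors, rose as well. Otx2 had 0.788 to 3.05 CPM (median 1.21) in HET and 1.09 to 19.6 CPM (median 5.10) in DEF libraries (log2 fold change 2.33, edgeR adjusted p 0.0113), with 18.6 and 19.6 CPM in DEF replicates 6 and 7 but 1.18, 1.09 and 1.24 CPM in replicates 1, 4 and 8. Lhx1 had 1.25 to 3.55 CPM (median 2.21) and 2.04 to 25.7 CPM (median 9.09) (log2 fold change 2.40 ± 0.41, edgeR adjusted p 0.00325) and 7 of 8 DEF libraries lay above every HET library. Of the 20, edgeR called none in the shared litters (0.808% of all genes were called higher and 0.747% lower), and 7 higher and 1 lower had an unadjusted p under 0.05, against 10.7% and 11.0% of all genes. In litter A, Lhx1 was lower in DEF than in HET (0.735-fold), whereas in litters B and C it was 5.97-fold and 2.75-fold higher. The median over the pathway was 0.56 against HET replicates 4 and 6, where 3 members had an unadjusted p under 0.05, all higher (2.57% of all genes were higher and 1.7% lower at that level). Leaving out any 1 library left at least 7 members called higher. The lists below stand beside the same shares over all genes. In the shared litters these are 0.808% called higher and 0.747% lower, and 10.7% and 11.0% at an unadjusted p under 0.05. Against HET replicates 4 and 6 they are 2.57% and 1.7% at an unadjusted p under 0.05.

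Of 23 pluripotency genes tested, 11 rose in DEF libraries (47.8%, against 7.42% of all genes) and 0 fell (against 5.38%). The median log2 fold change was 0.70. The transcription factors Nanog, Sox2, Prdm14, Klf5, Esrrb and Tfcp2l1 rose by 1.63, 1.46, 1.41, 0.75, 0.70 and 0.73 on the log2 scale. Tet1, which oxidises 5-methylcytosine, rose by 1.80, Dppa5a by 1.79, and the RNA-binding Lin28a and L1td1 by 0.94 and 1.49. Nanog had 3.54 to 8.13 CPM (median 5.91) in HET and 2.15 to 38.2 CPM (median 12.3) in DEF libraries (log2 fold change 1.63 ± 0.44, edgeR adjusted p 0.0239). DEF replicate 1, at 2.15 CPM, lay below every HET library, and 5 DEF libraries (replicates 2, 3, 5, 6 and 7) lay above every one. Pou5f1 (Oct4), the gene that the sort reporter is named for, had 31.4 to 61.4 CPM (median 45.7) and 27.1 to 76.7 CPM (median 59.7) and was not called (log2 fold change 0.26, edgeR adjusted p 0.361). The shared litters gave 3 calls among the 23, all higher, with a median of 0.35. Against HET replicates 4 and 6 the median was 0.53, with 1 member at an unadjusted p under 0.05. Leaving out 1 library gave between 4 (without DEF replicate 6) and 14 (without DEF replicate 1) rising pluripotency genes.

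Targets of FGF and ERK signalling moved the same way. Of 16 tested, 10 rose (62.5%, against 7.42% of all genes) and 0 fell (against 5.38%), with a median log2 fold change of 0.88. These were the ETS factors Etv1, Etv4 and Etv5 and the feedback inhibitors Dusp4, Dusp6, Spry2, Spry4, Spred1 and Spred2, with the early response gene Ier3. Etv5, also required for spermatogonial stem cells, had 23.7 to 41.4 CPM (median 28.4) in HET and 21.8 to 223 CPM (median 96.0) in DEF libraries (log2 fold change 1.85 ± 0.37, edgeR adjusted p 0.00679). The HET libraries lay close together, while DEF replicates 2, 6 and 7 had 223, 173 and 192 CPM and replicates 1, 4 and 8 had 21.8, 31.6 and 34.1 CPM. Within the shared litters 1 member was called (higher) and the median was 0.55. Against HET replicates 4 and 6 the median was 0.77, with 3 members higher at an unadjusted p under 0.05. The count of rising members was as low as 3, without DEF replicate 2.

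**Figure D4:**
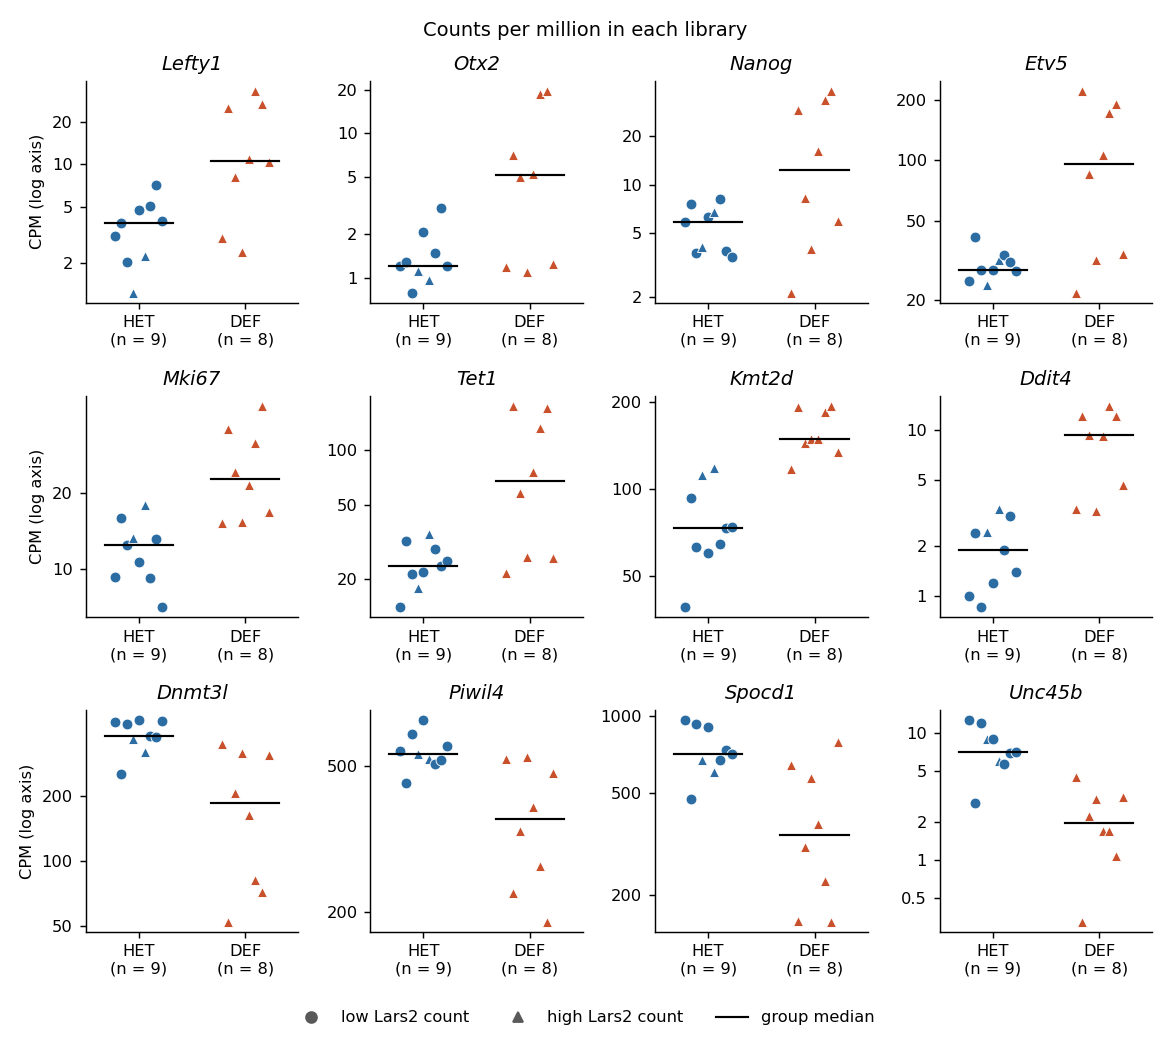
CPM (log axes) of 12 genes in each HET and DEF library. Points are libraries, triangles mark high Lars2 counts and lines are medians. For Nanog, Etv5 and Tet1, 3 of the 8 DEF libraries (replicates 1, 4 and 8) lie within or below the HET range, and for Ddit4 only replicate 4 does.

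The genotypes also differed in genes of the cell cycle, which prospermatogonia leave by about this age. Of 36 drivers tested, 17 rose (47.2%, against 7.42% of all genes) and 0 fell (against 5.38%), with a median log2 fold change of 0.51. They included the proliferation marker Mki67, the cyclins Ccna2, Ccnb2 and Ccnd1, the kinases Cdk1, Cdk6, Aurka, Aurkb, Bub1 and Plk1, the nucleotide synthesis enzymes Rrm2 and Tyms, and the factors Foxm1 and E2f1. Mki67 had 7.04 to 18.0 CPM (median 12.4) in HET and 15.3 to 44.8 CPM (median 22.9) in DEF libraries (log2 fold change 1.09 ± 0.23, edgeR adjusted p 0.00823). It was above every HET library in 5 of 8 DEF libraries (replicates 2, 3, 5, 6 and 7). Ccnd1, Rrm2 and Cdk1 had log2 fold changes of 1.14, 1.07 and 1.02. Among 12 inhibitors of the cycle, Cdkn1a (p21, 0.86) and the pocket protein Rbl1 (0.56) rose (16.7% of the 12) and 0 fell. Cdkn1b and Cdkn2a, 2 further cyclin-dependent kinase inhibitors, were not called (log2 fold changes -0.08 and 0.07). Within the shared litters 1 driver was called, 16 were higher at an unadjusted p under 0.05 and 0 lower, and the median was 0.35. The 12 inhibitors moved as much there, with 0 called, 6 higher and 0 lower at that level and a median of 0.36. Against HET replicates 4 and 6 the median of the drivers was 0.44, with 6 higher and 0 lower at that level. The inhibitors had a median of 0.19 against these 2 libraries, with 1 higher and 0 lower. Leaving out 1 library gave between 11 (without DEF replicate 6) and 21 (without DEF replicate 4) rising drivers.

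**Figure D5:**
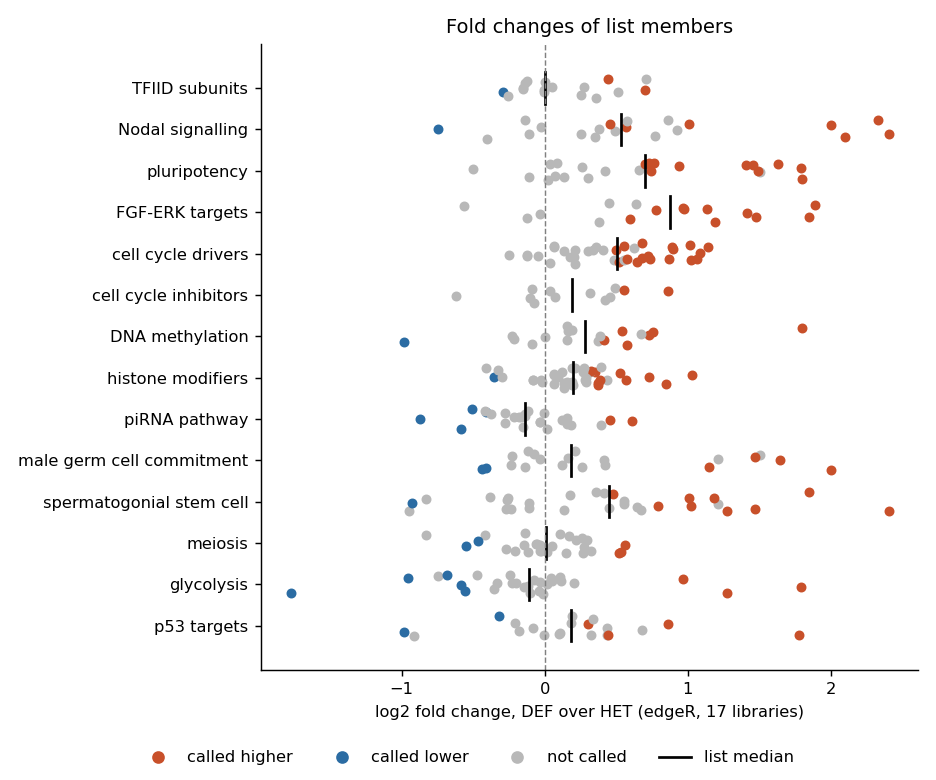
Log2 fold changes (DEF over HET, 17 libraries) of the tested members of 14 gene lists. Each point is a gene, coloured where edgeR's adjusted p was under 0.05, and black bars are list medians. The medians of the pluripotency, Nodal, FGF-ERK and cell cycle driver lists lie between 0.51 and 0.88, and those of TFIID and meiosis near 0.

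Of the TFIID subunits and their relatives other than Taf4b, 2 of 17 tested rose (11.8%) and 1 fell (5.88%). Over all genes tested 7.42% rose and 5.38% fell, and the median log2 fold change of the 17 was 0.00. Taf12, the histone-fold partner of Taf4 and Taf4b, had 26.0 to 38.8 CPM (median 32.8) in HET and 31.3 to 48.0 CPM (median 45.4) in DEF libraries, and 7 of 8 DEF libraries lay above every HET library. Only the library labelled DEF replicate 8, at 31.3 CPM, did not. Its log2 fold change was 0.44 (edgeR adjusted p 0.0161), 0.69 in the shared litters (adjusted p 0.0331) and 0.56 against HET replicates 4 and 6 (unadjusted p 0.0139). Taf15, a FET-family RNA-binding protein, rose by 0.70 over the 17 libraries, with 0.23 in the libraries with high Lars2 counts. Taf7l, the germ-cell paralog of Taf7, fell by 0.30 (edgeR adjusted p 0.0293). Taf12 and Taf15 were the subunits called higher from counts, while the deposited TPM values called 0 higher and 2 lower, near the 10.4% of all genes lower there, and the centred TPM values 2 higher and 1 lower.

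The piRNA pathway directs de novo DNA methylation to transposons in these cells. Of 26 members tested, 4 fell (15.4%, beside 5.38% of all genes) and 2 rose (7.69%, beside 7.42%), with a median log2 fold change of -0.14. The 4 were Spocd1 and Piwil4, which link nuclear piRNAs to DNA methylation, Gpat2, needed for piRNA production, and Henmt1, which methylates the 3′ end of piRNAs. Spocd1 had 473 to 958 CPM (median 707) in HET and 157 to 785 CPM (median 344) in DEF libraries (log2 fold change -0.87 ± 0.28, edgeR adjusted p 0.0441). The library labelled DEF replicate 8, at 785 CPM, lay above the HET median, and DEF replicates 2 and 7 had 159 and 157 CPM. Piwil4 had 449.8 to 665 CPM (median 538) and 188 to 528 CPM (median 359) (log2 fold change -0.58, edgeR adjusted p 0.0358), and 5 DEF libraries lay below every HET library. Tdrd5 and Pld6 rose by 0.61 and 0.45, and Tdrd5 had a log2 fold change of -0.22 over the 24 libraries of this age with litter and the Lars2 division as covariates. Calls of the shared litters were Spocd1 (-0.96, edgeR adjusted p 0.0477) and Pld6 (0.83, adjusted p 0.0395). No member had an unadjusted p under 0.05 against HET replicates 4 and 6, where the median was -0.13. Without DEF replicate 2, 0 members of the pathway were called in either direction.

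Of 18 genes of DNA methylation, 6 rose (33.3%, beside 7.42% of all genes) and 1 fell (5.56%, beside 5.38%). Their median log2 fold change was 0.28. The gene that fell was Dnmt3l, the cofactor of de novo methylation, with 253 to 448 CPM (median 380.2) in HET and 52.4 to 348 CPM (median 186) in DEF libraries (log2 fold change -0.98 ± 0.31, edgeR adjusted p 0.0416). DEF replicates 2, 6 and 7 had 52.4, 81.7 and 71.7 CPM, and replicates 1, 4 and 8 lay within the HET range. The methyltransferases Dnmt3a, Dnmt3b and Dnmt1 were not called (log2 fold changes -0.21, -0.09 and 0.00). The demethylation enzymes Tet1 and Tet2 rose. Tet1 had 14.1 to 35.0 CPM (median 23.4) in HET and 21.6 to 173 CPM (median 67.3) in DEF libraries (log2 fold change 1.80 ± 0.37, edgeR adjusted p 0.00823), with 1.34 in the shared litters (adjusted p 0.0476). The maintenance factor Uhrf1, the H3K36 methyltransferase Setd2 and the methyl-CpG-binding proteins Mbd2 and Mbd3 rose by 0.57, 0.54, 0.41 and 0.73. The list had 1 call and a median of 0.19 in the shared litters, and a median of 0.13 against HET replicates 4 and 6, with 1 member higher and 0 lower at an unadjusted p under 0.05. With litter and the Lars2 division as covariates its median was 0.098. Without DEF replicate 7, 3 of the 18 rose, and without DEF replicate 2 Dnmt3l was no longer called.

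Among 39 histone-modifying genes tested, 10 rose (25.6%, beside 7.42% of all genes) and 1 fell (2.56%, beside 5.38%). Their median log2 fold change was 0.20. The 10 included the H3K4 methyltransferases Kmt2c, Kmt2d, Setd1a and Setd1b and the H3K27 demethylase Kdm6b. Eed, a core subunit of Polycomb repressive complex 2, fell by 0.36 (edgeR adjusted p 0.0112). Kmt2d had 38.9 to 118 CPM (median 73.1) in HET and 117 to 194 CPM (median 149) in DEF libraries (log2 fold change 1.03 ± 0.18, edgeR adjusted p 0.00325). The 2 highest HET values, 112 and 118 CPM, were those of replicates 4 and 6, the HET libraries with high Lars2 counts. Against these 2 the log2 fold change was 0.45 (unadjusted p 0.0439), and over the 39 genes the median was -0.01. In the shared litters it was 1.04 (edgeR adjusted p 0.0331). Without the libraries labelled DEF replicate 8 and HET replicate 5, 6 of the 39 rose and 2 fell, and without DEF replicate 6, 4 rose.

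Male germ cell commitment and stem cell genes did not move as 1 group. Of 20 commitment genes, 4 rose (20%) and 2 fell (10%), and of 29 spermatogonial stem cell genes 9 rose (31.0%) and 1, Taf4b, fell (3.45%). Over all genes tested 7.42% rose and 5.38% fell. Nanos2, an RNA-binding protein that promotes male fate and represses meiosis, had 3.54 to 31.1 CPM (median 10.1) in HET and 4.94 to 60.1 CPM (median 35.7) in DEF libraries (log2 fold change 1.47 ± 0.42, edgeR adjusted p 0.0279). HET replicate 2 was the highest of HET and its litter mate DEF replicate 2, at 60.1 CPM, the highest of DEF libraries. Tcl1, Lefty1 and Sox4 rose by 1.65, 2.00 and 1.15, while the later germ-cell genes Tex101 and Ddx25, a surface glycoprotein and a helicase, fell by 0.41 and 0.44. Among stem cell genes, the GDNF receptor Ret, Id4, Cdh1, Sohlh2, Rarg and Itga6 rose by 1.02, 1.01, 1.27, 1.18, 0.79 and 0.47, and Gfra1 and Zbtb16 were not called (log2 fold changes 0.18 and 0.55). Without DEF replicate 6, 2 of the 29 rose. Of the 29, Taf4b alone was called in the shared litters. Against HET replicates 4 and 6 the median was 0.20, with 4 higher and 2 lower at an unadjusted p under 0.05.

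Of 29 meiotic genes, 3 rose (10.3%, beside 7.42% of all genes) and 2 fell (6.90%, beside 5.38%). Their median log2 fold change was 0.01, as over all genes tested. Syce2, Hormad2 and Ankrd31 rose by 0.53, 0.56 and 0.52, and the axis and synaptonemal complex genes Stag3 and Tex12 fell by 0.55 and 0.47. Against HET replicates 4 and 6, 3 members had an unadjusted p under 0.05, all lower. Stra8, which starts meiosis, had 10.3 to 50.7 CPM (median 18.0) in HET and 8.98 to 18.3 CPM (median 15.2) in DEF libraries and was not called (edgeR adjusted p 0.0522).

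Of 28 genes of glucose metabolism, 3 rose (10.7%, beside 7.42% of all genes), 5 fell (17.9%, beside 5.38%) and 20 were not called. Their median log2 fold change was -0.11. The median was 0.0061 against HET replicates 4 and 6, with 1 member higher and 0 lower at an unadjusted p under 0.05, and 0.11 with litter and the Lars2 division as covariates. Without DEF replicate 2, DEF replicate 6 or HET replicate 1, 3 of the 28 fell. The lactate dehydrogenase genes moved apart. Ldhb had 31.7 to 98.5 CPM (median 60.9) in HET and 47.6 to 503 CPM (median 169.6) in DEF libraries (log2 fold change 1.79 ± 0.40, edgeR adjusted p 0.0107), and Ldha had 151 to 218 CPM (median 193) and 50.4 to 176 CPM (median 124) (log2 fold change -0.68 ± 0.19, edgeR adjusted p 0.0247). Pdk1, which inhibits pyruvate dehydrogenase, and Pfkfb3, which activates phosphofructokinase, rose by 0.97 and 1.27, and Pfkl, Aldoc, Gys2 and Pygm fell by 0.56, 0.96, 1.78 and 0.58. The 1 member called in the shared litters was Gys2 (-2.01, edgeR adjusted p 0.029). Of 36 nuclear genes of the respiratory chain, Ndufb10 rose (0.46) and Ndufs8 fell (-0.37), which was 2.78% each way. Of 13 genes of the mitochondrial genome mt-Nd6 rose (0.32), which was 7.69%. Over all genes tested 7.42% rose and 5.38% fell, so these shares were under or near those of all genes.

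The 4 stress lists held calls in both directions, beside 12.8% of all genes called. Of 21 genes of the amino acid stress response, Ddit4 and Trib3 rose and Asns, Atf3 and Pck2 fell. Of 20 p53 targets 4 rose and 2 fell, and leaving out 1 library gave between 2 and 6 rising targets. Pmaip1 (Noxa), a pro-apoptotic gene, had 33.2 to 99.1 CPM (median 51.9) in HET and 38.2 to 344 CPM (median 169) in DEF libraries (log2 fold change 1.78 ± 0.38, edgeR adjusted p 0.00916). Cdkn1a rose by 0.86, Ei24 by 0.44 and Trp53inp1 by 0.30, while Mdm2, the ubiquitin ligase of p53, and the death receptor Fas fell by 0.32 and 0.99. Of the p53 targets, 4 were higher and 1 lower at an unadjusted p under 0.05 against HET replicates 4 and 6. Of 20 hypoxia genes, Ddit4 and Mxi1 rose and Bnip3 and P4ha2 fell. Of 22 immediate early genes, Zfp36 and Hspa8 rose and Atf3, Junb and Socs3 fell. The median of this list was -0.13 over the 17 libraries (7 of 22 positive) but 0.20 in the shared litters (18 of 22 positive). By edgeR 7 were higher there and 0 lower at an unadjusted p under 0.05, against 10.7% and 11.0% of all genes. The differences of Atf3 and Junb were not seen within litters, with log2 fold changes of -0.82 and -0.97 over the 17 libraries and of 0.01 and 0.10 in the shared litters.

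Of 31 imprinted genes tested, 4 rose (12.9%, beside 7.42% of all genes) and 3 fell (9.68%, beside 5.38%). Mest, Snrpn, Peg12 and Peg3 rose by 0.82, 1.39, 1.33 and 0.60. Sgce, Slc38a4 and Phlda2 fell by 0.68, 0.80 and 0.59. Leaving out any 1 of DEF replicates 2, 6 and 7 and HET replicate 1 left 0 imprinted genes called higher. The list median of 0.10 became -0.28 against HET replicates 4 and 6, over 34 members tested there. Slc38a4 was the only one called in the shared litters (-0.88, edgeR adjusted p 0.018). Of 40 splicing genes, 6 rose (15%, beside 7.42% of all genes) and 0 fell (beside 5.38%), with a median log2 fold change of 0.21. Sf3a2, U2af2 and Hnrnpl rose by 1.04, 0.85 and 0.81 over the 17 libraries, but had log2 fold changes of 0.18, 0.27 and 0.21 against HET replicates 4 and 6, and no splicing gene had an unadjusted p under 0.05 there. The deposited TPM values called 4 splicing genes higher and 4 lower, near the 10.4% of all genes lower there, and the centred TPM values 6 higher and 0 lower.

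The remaining genes named as higher, beside Lhx1, Otx2, Ddit4, Lefty1, Etv4 and Etv5, were Khdc3, a gene of the maternal subcortical complex of oocytes, Ddx60, an interferon-induced helicase, Amot, a regulator of YAP, the brain creatine kinase Ckb, and the small RNA genes Rnu1b6 (U1) and Snord13. Khdc3 had 0.600 to 3.27 CPM (median 1.49) in HET and 0.644 to 21.7 CPM (median 4.08) in DEF libraries and rose by 2.20 on the log2 scale (edgeR adjusted p 0.0189). Ckb had 7.05 to 18.0 CPM (median 12.8) and 12.7 to 85.4 CPM (median 31.4), with 1.85 ± 0.35 over the 17 libraries, 1.42 in the shared litters (edgeR adjusted p 0.00541 and 0.0301) and 2.09 against HET replicates 4 and 6 (unadjusted p 0.014). Amot and Ddx60 had 1.89 and 2.12 over the 17 libraries and 1.36 and 1.26 in the shared litters. Rnu1b6 differed with the Lars2 division, with a log2 fold change of 2.01 over the 17 libraries and 0.23 against HET replicates 4 and 6, which had 5.89 and 5.42 CPM against 0.362 to 0.745 CPM in the other HET libraries. U1 genes have near-identical copies, so the count of any 1 of them is uncertain.

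Among markers of other cells, all 10 Leydig genes tested had a negative log2 fold change (median -1.33). By edgeR 9 of them were lower at an unadjusted p under 0.05, as were 3302 of all 22365 genes tested. Only 1 was called, Fdx1, a ferredoxin also made outside Leydig cells. Leaving out 1 library gave 0 to 7 Leydig genes called lower, with 7 without DEF replicate 1. In the shared litters Fdx1 had -0.12 and the list a median of -0.11. Cyp17a1, the steroid 17-hydroxylase, had 27.6 to 1577 CPM (median 599) in HET and 33.7 to 624 CPM (median 160.2) in DEF libraries, with 27.6 and 107 CPM in HET and 175 and 33.7 CPM in DEF libraries of litter C. Of 11 macrophage markers 4 fell (36.4%, beside 5.38% of all genes), Csf1r, Fcer1g, Aif1 and Cx3cr1, with log2 fold changes between -0.97 and -1.48. None was called higher, but Ptprc had a higher median in DEF (2.47 CPM) than in HET libraries (0.708 CPM). From the centred TPM values 1 of the 11 was called higher and 5 lower. In the shared litters 1 of the 11 was called, and the list median went from -0.97 over the 17 libraries to -0.30 there and to -0.13 with litter and the Lars2 division as covariates. Leaving out 1 library gave 2 to 5 macrophage markers lower. Of 9 endothelial markers tested, 1 rose and 1 fell (11.1% each way). Of 14 Sertoli markers tested, Amh rose and Nr0b1 fell (7.14% each way, beside 7.42% and 5.38% of all genes). Nr0b1 had a median of 1.49 CPM in HET and 1.12 CPM in DEF libraries. Amh, a hormone of Sertoli cells, had 0.191 to 6.07 CPM (median 0.621) in HET and 1.77 to 12.3 CPM (median 5.32) in DEF libraries (log2 fold change 1.91, edgeR adjusted p 0.0321). The 2 highest HET values of Amh, 6.07 and 3.40 CPM, were those of replicates 4 and 6, and against these the log2 fold change was 0.33. Sox9, a defining gene of Sertoli cells, had 3.39 to 10.2 CPM (median 6.18) and 3.00 to 13.3 CPM (median 5.85) and was not called.

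Over all 28 lists, 141 of 555 unique members tested were called (25.4%), against 12.8% of all genes. The lists were chosen with results of these data known, so this share is a description. Without the libraries labelled DEF replicate 8 and HET replicate 5, the pathway counts moved little, with 7 rising Nodal, 10 pluripotency, 9 FGF-ERK and 18 cell cycle driver genes. With litter and the Lars2 division both as covariates over the 17 libraries, 0 genes were called by edgeR and 1489 had an unadjusted p under 0.05, 3.69% of all genes higher and 2.96% lower. The medians of these 4 lists were then 0.31, 0.22, 0.18 and 0.28. From the deposited TPM values, limma on log2(TPM + 1) gave the Nodal, pluripotency, FGF-ERK and cell cycle driver lists medians of 0.25, 0.45, 0.33 and 0.33. It called 3, 3, 3 and 7 members higher and 1, 0, 0 and 0 lower, beside 2.35% and 10.4% of all genes. From the centred TPM values the medians were 0.42, 0.61, 0.50 and 0.49. There 8, 5, 5 and 13 members were higher and 1, 0, 0 and 0 lower, beside 7.66% and 4.98% of all genes. Of 183 genes tested within 20 Mb of Taf4b, 10 were higher and 9 lower in DEF libraries (10.4%).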

How the data were processed

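RNA-seq libraries of sorted germ cells (9 HET, 8 DEF) were used as deposited. The authors' gene counts came from featureCounts (Subread 1.6.2) on GRCm38, per the submitters' processing notes, which also list Trim Galore 0.5.0, FastQC 0.11.5, HISAT2 2.1.0, SAMtools 1.9 and StringTie 1.3.3b. TPM values (abundance per transcript length, scaled to a common total) were deposited by the authors in a table named for StringTie. Whether counting used strand is also not given, so overlapping antisense genes cannot be separated.

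Genotype and litter were taken from the labels. Counts were tested with edgeR 4.0.16 (R 4.3.3): TMM scaling, filterByExpr, quasi-likelihood test, Benjamini-Hochberg adjustment over all genes tested, and a threshold of 0.05. The same fit was run on the shared litters with litter as block. Both were tested on simulated data. Alternatives used DESeq2 1.42.0, limma 3.58.1 on TPM, other filters, left-out libraries, litter and the Lars2 division (above or below 10000 CPM), the last chosen after seeing the data. Lists were described by counts and medians, with no set test. Named genes were Taf4b, Taf4, the 12 higher and 12 lower called genes with the log2 fold change largest in size, an average log2 CPM of at least 1, no somatic marker, no provisional symbol and an unadjusted p under 0.05 with the same sign in the shared litters, and up to 3 called members each way of each list. Genes named outside the rule (Nodal, Tdgf1, Pou5f1, Cdkn1b, Cdkn2a, Dnmt1, Dnmt3a, Dnmt3b, Gfra1, Zbtb16, Stra8, Cyp17a1, Ddx4, Sox9, Lars2 and further list members) were chosen after their values were seen. The values of 2 genes that the rule gave are not reported here. Of 608 list symbols, 4 were not found in the table. The comparison, the lists and the members were chosen with earlier results of these data known.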

Additional observations from a re-analysis of the deposited data

Results flagged for a closer look

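Of 105 named genes in each genotype (210 groups), 24 held 1 library far from the rest by Dixon's test, where chance gives about 1 in 20. No group of libraries was formed from these values, and no explanation was tested.

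In HET libraries, the highest of its group was replicate 4 for Ddx60 (2.58 CPM), replicate 3 for Snord13 (3.41 CPM) and AC154707.1 (8.14 CPM), and replicate 5 for Gpat2 (737 CPM). Replicate 1 was highest for Ccdc110 (10.0 CPM), Alas2 (123 CPM) and Hba-a2 (411 CPM), and replicate 2 for Nanos2 (31.1 CPM) and Pmaip1 (99.1 CPM). The lowest was replicate 6 for Actc1 (6.47 CPM), replicate 2 for Pld6 (14.9 CPM) and replicate 5 for Mbd3 (36.4 CPM).

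In DEF libraries, replicate 1 was the highest for Kcnn4 (12.7 CPM), Ifi207 (3.06 CPM), Col3a1 (42.4 CPM), Alas2 (97.3 CPM) and Hba-a2 (495 CPM). Replicate 3 was the highest for Snord13 (10.4 CPM) and Aif1 (0.581 CPM). The library labelled DEF replicate 8 was the highest for Taf4b (136 CPM), Ccdc110 (5.41 CPM) and Ndufs8 (357 CPM) and the lowest for Taf12 (31.3 CPM) and Ndufb10 (113 CPM). DEF replicates 1 and 8 gave 5 of the 24 each, and both replicates 1, from litter A, were highest in their group for Alas2 and Hba-a2.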

How the results depend on the processing

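The count of 2862 genes, and that of 141 list members, moved most with litter, the Lars2 division and single libraries. Genes called numbered 188 with litter as covariate, 358 in the shared litters with the block and 0 without it (2148 at an unadjusted p under 0.05 by edgeR), 297 over all 24 libraries of this age with litter as covariate, 3311 in the litters that held 1 genotype each (1561 higher and 1750 lower), where genotype and litter cannot be told apart, and 675 at a log2 change of at least 1. With high Lars2 counts only, with that division as covariate, and with it and litter as covariates, edgeR called 0, 0 and 0 (1120, 1595 and 1489 at an unadjusted p under 0.05), and 29 over 24 libraries with both covariates. Leaving out 1 library gave 1118 to 5027. In the shared litters, leaving out 1 library gave 3 to 770, and the Lars2 division as covariate 0 (993 at an unadjusted p under 0.05). List members called were 5 with litter as covariate, 18 in the shared litters, 0 there without the block, 12 over 24 libraries with litter, 0, 0 and 0 under the settings with the Lars2 division, 2 over 24 libraries with both covariates, and 62 to 203 without 1 library. The cause was not tested.

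Replicate numbers do not pair the samples, since only numbers 1 to 4 share litters. Deviations of same-numbered libraries correlated between -0.058 and 0.602, and 3 of 8 numbers matched best with themselves. The replicate block gave 5192 calls, 2544 higher and 2648 lower.

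Signs reversed over 24 libraries with both covariates for Tdrd5 (-0.22), Ei24 (-0.044), Hnrnpl (-0.036), Fdx1 (0.012) and Junb (0.20). With both covariates over 17 libraries, Atf3 had 0.050, Junb 0.22, Nr0b1 0.16 and Fdx1 0.14. In the shared litters Atf3 had 0.0054 with and 0.047 without the block, and Junb 0.10 with it. With litter as covariate Junb had 0.093 over 17 and 0.12 over 24 libraries. The cause was not tested. No other named gene that was called changed its sign in the 37 settings in which each of the 105 named genes was checked, where it was tested, including the DESeq2 Wald test (4268 calls) and the TPM values. Named genes were not checked one by one in the further fits of the shared litters. The planned comparison of promoter motifs between gene groups was not run.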
